A study of Caenorhabditis elegans with 8 samples.

Results

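RNA that came down with LIN-41 from Caenorhabditis elegans females was compared, gene by gene, with the RNA of whole-animal lysates. The comparison took every gene of the authors' deposited table, 16031 genes, and used the FPKM (fragments scaled by transcript length and library size) that the authors pooled over the LIN-41 immunoprecipitates (IPs) and over the lysates depleted of ribosomal RNA. For each gene the log2 ratio of the IPs to the lysates was formed after adding 1 FPKM to both. The 6768 genes with a baseMean of at least 100 were ranked, where baseMean is the authors' scaled mean number of reads per gene over libraries, IPs included. The remaining 9263 genes were too shallow to rank.

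The study has 8 libraries. The 2 LIN-41 IPs came from animals with the allele tn1541 at the endogenous lin-41 locus, which adds gfp, tev and s tags to the protein, together with fog-1(q253ts). The 2 depleted lysates, the denominator here, came from both strains: 1 from these animals and 1 from fog-1(q253ts) animals with the oma-1 mutation zu405te33. That strain carries the transgene tnIs17, in which an oma-1 promoter drives OMA-1 with s, tev and gfp tags, with unc-119(+) as a second gene. The 2 OMA-1 IPs from the second strain serve only for values side by side, and the 2 lysates without depletion were not used. All animals were thus fog-1(q253ts), an allele that feminises the germ line at 25 °C, and were young adults collected once they had fed for about 48 h. IPs used a mix of monoclonal antibodies to GFP and carry no depletion in their labels, whereas the lysates were depleted, so depletion and IP cannot be told apart in any ratio below. No library is labelled as a mock or untagged IP. The lysates hold the whole animal, soma included, and in such bulk samples fewer cells of a type and less RNA per cell cannot be told apart.

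LIN-41 is a TRIM-NHL protein that binds mRNA. In growing oocytes it holds back translation of its target mRNAs and keeps the oocyte from entering M phase too early. In the larval soma it is a target of the let-7 microRNA and represses the transcription factors that drive adult fates. OMA-1 is a CCCH zinc finger protein that works in the same oocytes on an overlapping set of mRNAs.

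Most genes lay near the lysate level, with a long tail on the side of LIN-41. The median log2 ratio over ranked genes was 0.34, the quartiles were -0.37 and 1.25, and the extremes were -8.16 and 8.32. Of the ranked genes 2114 (31.2%) were at least 2-fold higher with LIN-41. Of these, 841 passed 4-fold and 117 passed 16-fold. At least 2-fold lower were 670 ranked genes (9.9%), with 181 at least 4-fold and 14 at least 16-fold. These are counts by size, with no test, because the pooled values have no replicate spread and so no SD. The authors' deposited table gives a one-sided test for enrichment, in which all 7187 tested genes with a ratio at or below 0 have an adjusted p of 1. That test called 3795 of 13955 genes tested (27.2%) higher at an adjusted p below 0.05 in the authors' deposited table, and 3355 of the 6768 ranked genes (49.6%). No gene could be called lower by it.

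Where a ratio of 0 lies depends on the scaling. The LIN-41 column sums to 762130 FPKM and the lysate column to 394382 FPKM. Scaling both to equal totals, with genes of the mitochondrial genome left out of the totals, shifts the median of all ranked genes by -0.89, and then 906 genes are at least 2-fold higher and 2278 at least 2-fold lower. Of the genes at least 2-fold apart, 75.9% are higher under the deposited scaling, 28.5% with equal totals and 54% with quantile normalization. Gene groups are therefore set against the median of all ranked genes, 0.34. Their counts of members at least 2-fold higher and lower are to be read beside 31.2% and 9.9% of all ranked genes. Equal totals multiply the LIN-41 column by a single factor, so a list could hardly change side there. With quantile normalization each gene list kept its side, but margins moved. The margin above the median went from 0.43 to 0.04 for eggshell genes and from 0.79 to 0.15 for oligosaccharyltransferase and translocon genes. For nuclear hormone receptors it rose from 0.54 to 0.67. The words high and low below refer to the deposited scaling.

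The tagged gene itself was high in its own IPs. The mRNA of lin-41 (WBGene00003026, chromosome I 9334800 to 9342496 in WBcel235) had 2514 FPKM with LIN-41 and 98.8 FPKM in the lysates, a log2 ratio of 4.66. Its mRNA was also above the lysates with OMA-1, at a log2 ratio of 1.81. For oma-2 the ratio was 3.23 with LIN-41, and for oma-1 it was 1.65, with a lysate denominator in which 1 strain carries an oma-1 transgene.

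**Figure D1:**
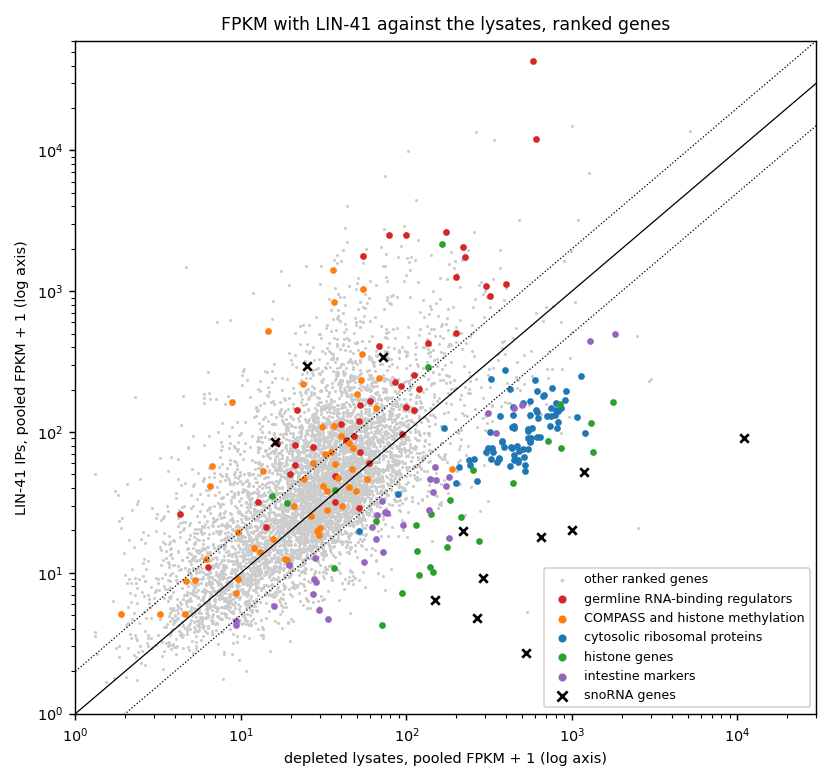
Pooled FPKM plus 1 of each ranked gene in the LIN-41 IPs (y, log axis) against the depleted lysates (x, log axis), with 5 gene lists and the snoRNA genes coloured. The solid line marks equal values and the dotted lines a 2-fold difference. Germline RNA-binding regulators lie mostly above the upper dotted line, while cytosolic ribosomal proteins, most histones and 9 of 12 snoRNA genes lie below the lower dotted line.

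Oocyte mRNAs led the RNA of the LIN-41 IPs by abundance. The translation regulator spn-4 made up 5.67% of all FPKM, with 43194 FPKM with LIN-41 against 579 FPKM in the lysates. The 10 most abundant genes held 18% of all FPKM with LIN-41 and 8.84% in the lysates. Next to spn-4 stood clec-87, a C-type lectin gene, with 14957 FPKM against 1006 FPKM in the lysates, the uncharacterised gene F14H3.6 with 13594 against 260, and pos-1, a CCCH zinc finger regulator of early embryos, with 12112 against 606. Above F14H3.6 and pos-1 stood an rRNA pseudogene, WBGene00004677, which also ranked second in the lysates and is described with the other biotypes. That entry and the eggshell gene cpg-2, with 6889 FPKM with LIN-41 and 1261 in the lysates, were among the 15 most abundant of both. Others led the lysates: the snoRNA ZK185.9 had 89.3 FPKM with LIN-41 and 10999 FPKM in the lysates, and eef-1A.1, the elongation factor gene, 476 and 2458 FPKM. The yolk protein gene vit-6, expressed in the intestine, had 496 FPKM with LIN-41 and 1830 FPKM in the lysates.

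The top of the ranking joined known LIN-41 targets to genes that have no name. Besides mab-10, orc-1, lin-29 and spn-4, the 10 highest ratios held 6 genes known only by sequence names: T05F1.4 (6.52), C17E7.4 (6.47), T08D2.7 (6.38), F18C5.10 (6.36), T09B9.1 (6.32) and Y37H2A.12 (6.18). For T08D2.7 the FPKM was 599 with LIN-41, 9.89 with OMA-1 and 6.19 in the lysates, so the OMA-1 IPs were close to the lysates there. For C17E7.4 it was 6556 with LIN-41, 1518 with OMA-1 and 72.8 in the lysates, high in both kinds of IP. Ranked coding genes with a sequence name in place of a gene name had a median ratio of 0.47 (2686 genes, 35.8% at least 2-fold higher), against 0.25 for those with a gene name (3993 genes, 27.9%).

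Of 4 reported somatic targets of LIN-41, 1 was too shallow to rank. The other 3 were nearly absent from the lysates and plain in the LIN-41 IPs. The gene mab-10, a cofactor of the EGR-type transcription factor LIN-29, had 1483 FPKM with LIN-41 and 3.64 FPKM in the lysates, the highest ratio of all (8.32). For lin-29 the values were 176 and 1.28 FPKM (6.28), and for mab-3, a DM-domain regulator of male differentiation, 49.2 and 0.32 FPKM (5.25). With lysate values this low the 3 genes could pass the limit on depth through the IP libraries alone. Their ratios also move with the offset: the median of these 3 genes was 7.0 with 0.1 FPKM added and 4.85 with 5 FPKM added. These genes and the 14 germline targets listed here were listed with knowledge of this study, so their direction is not independent evidence. Of the 14, the authors' deposited table called 12, against 49.6% of all ranked genes, and 10 were at least 2-fold higher, with a median of 3.98. The members near the lysate level were cul-4, a cullin (-0.05), and fce-2, a CAAX protease gene (0.39).

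Germline RNA-binding regulators formed the broadest high group. Of 43 ranked members, 31 were at least 2-fold higher and none was at least 2-fold lower, with a median of 1.46. The authors' deposited table called 39, against 49.6% of all ranked genes. Together the listed genes held 10.1% of all FPKM with LIN-41 and 1.28% in the lysates. Most of the share with LIN-41 came from spn-4, which alone held 5.67% of all FPKM. After spn-4 the highest were the Nanos genes nos-1 (1783 FPKM with LIN-41, 53.3 in the lysates, ratio 5.04) and nos-2 (2514 and 77.6 FPKM, 5.0). The remaining Nanos gene of the list, nos-3, lay at 0.02 (59.6 FPKM with LIN-41, 58.7 in the lysates), so the family was not alike. The same held for the PUF proteins, translational repressors that bind 3′ UTRs, with puf-11 at 3.93, fbf-1 at 1.93, fbf-2 at 0.56 and puf-12 at -0.83. The cytoplasmic poly(A) polymerase gene gld-2 (-0.23) and its partner gld-3 (0.04) were near the lysate level. The median of the same list was 1.49 with OMA-1, whose comparison uses the same lysates.

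Machinery that destroys mRNA lay near the median of all ranked genes, with decapping factors at its top. The mRNA decay list had a median of 0.10 over 33 ranked members, with 6 at least 2-fold higher and 2 lower. That share of higher genes was below the 31.2% of all ranked genes. The decapping enzyme gene dcap-2 had 389 FPKM with LIN-41 and 38.5 in the lysates (3.31), the Pat1 homolog patr-1 had 1658 and 216 FPKM (2.93), and panl-2, a deadenylase subunit, 242 and 48.1 FPKM (2.31). At the other end were the nuclease genes crn-3 (-1.10) and parn-1 (-1.01) and the CCR4-NOT scaffold let-711 (-0.81). Germ plasm genes were split in a like way, with a median of 0.58 over 14 ranked members: meg-1 (4.29), meg-2 (3.03) and meg-3 (1.95), which assemble P granules in embryos, were high, while the Vasa homologs glh-1 (-0.58) and glh-4 (-0.19) were not. The highest of that list was neg-1 (5.13), an embryonic regulator of gut fate.

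The small RNA pathway had 12 of 45 ranked members at least 2-fold higher, a share below the 31.2% of all ranked genes, and 4 lower, with a median of 0.43. Highest were genes that serve the making or use of secondary siRNAs: mut-15 (376 FPKM with LIN-41, 25.1 in the lysates, 3.86), the RNA-dependent RNA polymerase rrf-1 (456 and 36.9 FPKM, 3.59) and the Argonaute ppw-2 (912 and 87.2 FPKM, 3.37). The Piwi gene prg-1 followed at 2.44, after mut-7 at 3.05. Lowest were the Argonautes ppw-1 (-1.09) and csr-1 (-1.01), the nuclear RNAi gene nrde-2 (-1.04) and Dicer, dcr-1 (-1.02). Argonaute genes thus stood at both ends of the list.

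**Figure D2:**
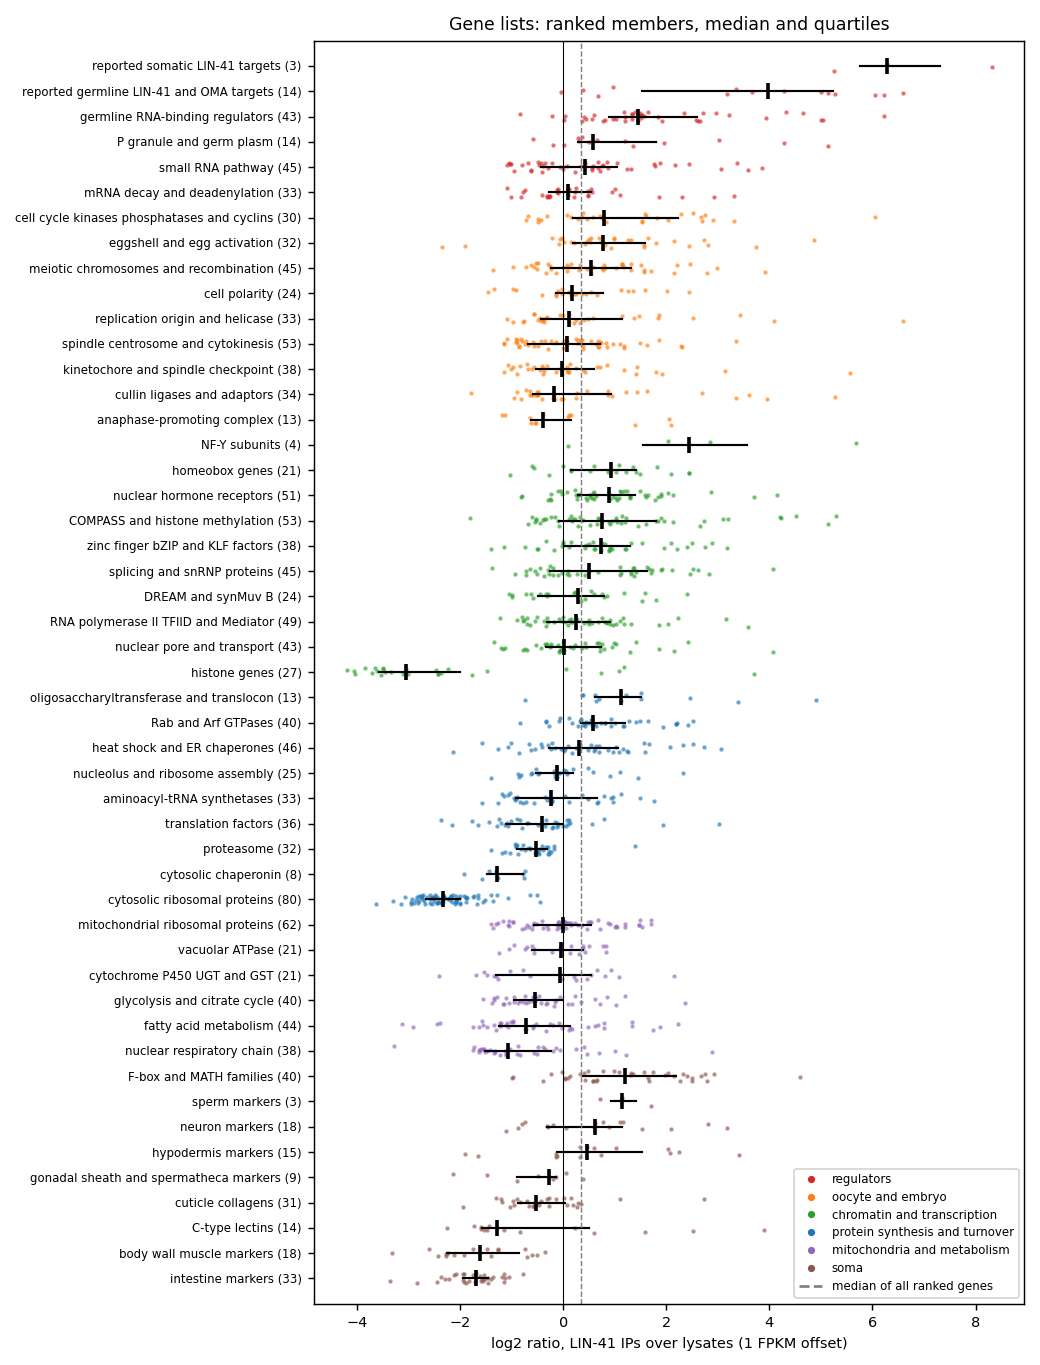
Log2 ratio of LIN-41 IPs over lysates (x) for each ranked member (points) of the gene lists with at least 3 ranked members, with the median (tick) and quartiles (bar). The number of ranked members stands in brackets, colours give the role, and the dashed line is the median of all ranked genes, 0.34. Regulators and transcription factors lie mostly right of that line, and ribosomal proteins, histones, muscle and intestine genes left of it.

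Among genes of the oocyte-to-embryo transition, cell cycle regulators and eggshell genes lay above the median of all ranked genes. Of 30 ranked kinases, phosphatases and cyclins, 14 were at least 2-fold higher, against 31.2% of all ranked genes, and none lower. Their median was 0.79. The phosphatase gene cdc-25.3, an activator of cyclin-dependent kinases, had 2818 FPKM with LIN-41 and 41.5 in the lysates (6.05), and cdc-25.2 had 223 and 21.5 FPKM (3.31). The 4 B-type cyclin genes, chosen for mention after their values were seen, were all high, cyb-1 at 2.91, cyb-3 at 2.75, cyb-2.1 at 2.51 and cyb-2.2 at 1.53, whereas their kinase partner cdk-1 lay at 0.29. Polo kinase plk-1 (-0.73) and the kinase gene cdk-9 (-0.68) were the lowest of the list.

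Eggshell and egg activation genes had 12 of 32 ranked members at least 2-fold higher and 2 lower, with a median of 0.77. That share of higher genes was only a little above the 31.2% of all ranked genes. The highest were cpg-8 (1587 FPKM with LIN-41, 53.7 in the lysates, 4.86), mbk-2, the kinase of the oocyte-to-embryo transition (3.74), and perm-3 (2.82). Both lower members, perm-2 (-2.35) and perm-4 (-1.90), encode proteins of the vitelline layer. Meiotic chromosome genes had 17 of 45 at least 2-fold higher, also a share a little above that of all ranked genes, and 1 lower. Highest were him-5 (3.91), the BRCA2 homolog brc-2 (2.99) and the synaptonemal complex gene syp-3 (2.79), and lowest was rad-50 (-1.36). Cell polarity genes were near the median (0.18), with par-3 (2.43), par-2 (2.01) and par-6 (1.59) high and the 14-3-3 gene par-5 (-1.46) and the myosin gene nmy-2 (-1.34) low.

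In 3 complexes 1 subunit stood far above the others. These complexes were picked out after the values were seen. Of the origin recognition complex, which licenses replication, orc-1 (WBGene00012650, chromosome III 10643129 to 10646058) had 9817 FPKM with LIN-41 and 101 FPKM in the lysates (6.60), followed by orc-4 with 126 and 34.7 FPKM (1.83). The others were near or below the lysate level, orc-3 at 0.12, orc-2 at -0.01 and orc-5 at -0.97. The kinetochore gene mis-12 (WBGene00021648, chromosome I 3604515 to 3605744) had 1951 FPKM with LIN-41 and 40.4 in the lysates (5.56), against a median of 0.39 for the 9 outer kinetochore genes examined, mis-12 included. Among COMPASS subunits, which methylate histone H3, cfp-1, whose mammalian homolog binds CpG-rich DNA, had 1029 and 53.8 FPKM (4.23). After it came wdr-5.1 (1.83) and rbbp-5 (1.60), also at least 2-fold higher, then the catalytic subunit set-2 (0.95), ash-2 (0.39) and dpy-30 (-0.33).

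Cullin ubiquitin ligases and their adaptors were below the median of all ranked genes as a list, at -0.17 over 34 ranked members, with 8 at least 2-fold higher and 1 lower. The highest was zif-1 (5.27), which directs the decay of germ plasm proteins in somatic cells of the embryo as an adaptor of the CUL-2 ligase. The sex determination gene fem-3 (3.95) and the adaptor genes zyg-11 (3.35) and zer-1 (2.69), which work with the same ligase, were high as well. Other genes of its adaptors and their partners, fem-2 (0.26), lrr-1 (-0.52) and fem-1 (-0.59), were not. Its core subunits elb-1, rbx-1, cul-2 and elc-1 had ratios of 0.25, -0.19, -0.52 and -1.78, within the range of these lower partners except for elc-1. Of the anaphase-promoting complex, the activators fzy-1 (the Cdc20 homolog, 2.09) and fzr-1 (the Cdh1 homolog, 1.39) were at least 2-fold higher, with gfi-3 at 2.05 as the single such core subunit. The remaining 10 ranked subunits lay between -1.19 and 0.15. Such contrasts between members were seen after the fact and carry no test.

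**Figure D3:**
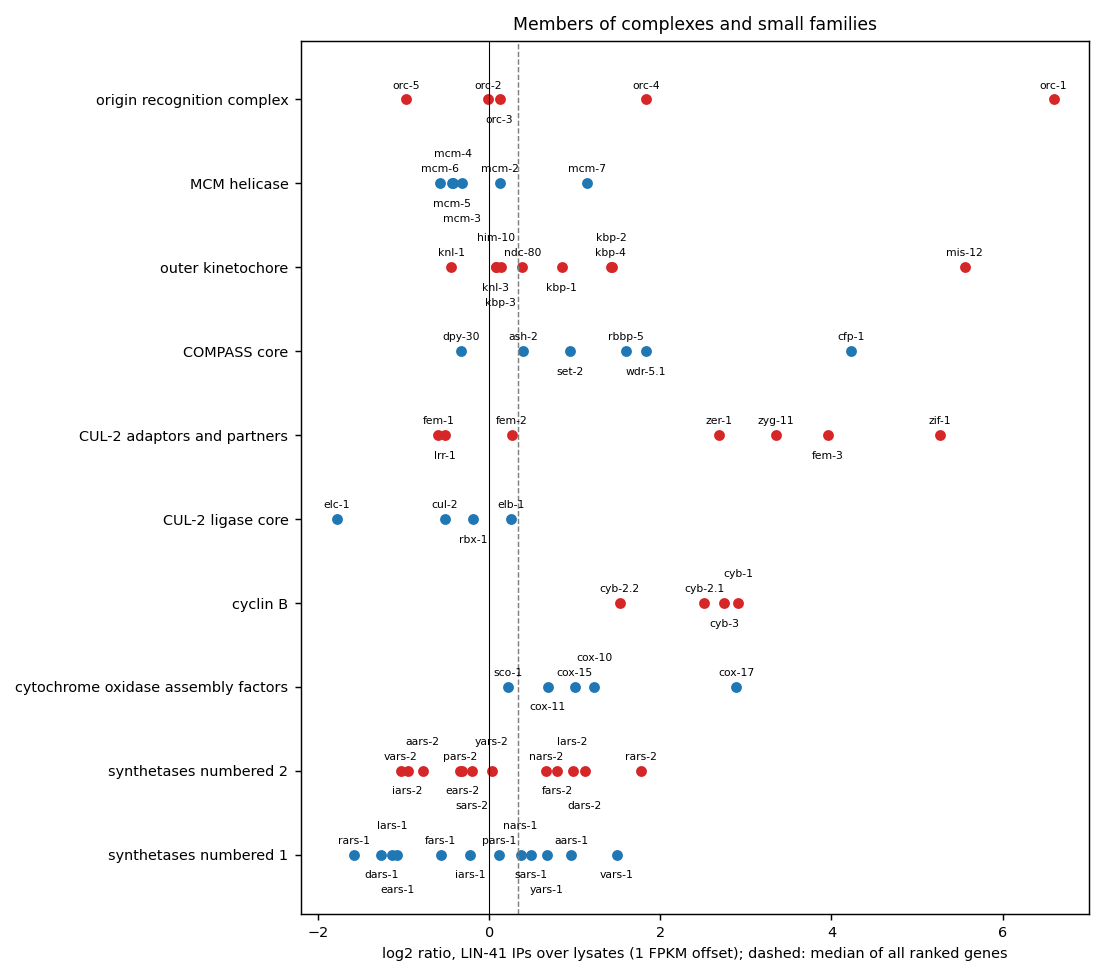
Log2 ratio of LIN-41 IPs over lysates (x) for the members of 10 complexes and small families (y) that were chosen after the values were seen. Colours alternate by line, the solid line is 0 and the dashed line the median of all ranked genes. The genes orc-1, mis-12 and cfp-1 stand apart from the other members of their complexes, and 4 of 7 CUL-2 adaptors and partners lie at 2.69 or higher, with the other 3 near the core subunits.

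Several histone demethylases and the NF-Y factor stood high among chromatin and transcription genes. Of 53 ranked genes for COMPASS and histone methylation, 23 were at least 2-fold higher and 1 lower, with a median of 0.75. The authors' deposited table called 34, against 49.6% of all ranked genes. The demethylase gene jmjd-2 (1414 FPKM with LIN-41, 34.9 in the lysates, 5.30) and the amine oxidase genes lsd-1 (518 and 13.6 FPKM, 5.15) and amx-1 (161 and 7.78 FPKM, 4.21), of the LSD1 demethylase family, were among the 5 highest, next to set-31 (4.51) and cfp-1. The arginine methyltransferase prmt-1 was the single lower member (-1.80). NF-Y, a CCAAT-binding factor, had nfyc-1 at 5.68 (2243 FPKM with LIN-41, 42.7 in the lysates), nfyb-1 at 2.86, nfya-2 at 2.04 and nfya-1 at 0.10.

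Ranked members of 2 transcription factor families were also above the median of all ranked genes, by a margin that shrank with a lower limit on depth. Nuclear hormone receptors had 23 of 51 ranked members at least 2-fold higher and none lower (median 0.88), led by nhr-71 (4.15), nhr-20 (3.70) and sex-1 (2.88), which counts X chromosomes in the embryo. Homeobox genes had 10 of 21 at least 2-fold higher and 1 lower (median 0.92), led by ceh-83 (2.45), ceh-39 (2.43) and pal-1 (2.09), a Caudal homolog. Of all ranked genes, 31.2% were at least 2-fold higher and 9.9% lower. Most genes of both families were too shallow to rank, 150 of 201 receptors and 50 of 71 homeobox genes, and a gene with little lysate RNA could pass the limit on depth through the IP libraries alone. With the limit lowered to a baseMean of 10 the medians were 0.15 for receptors and 0.12 for homeobox genes, against 0.03 for all genes then ranked. With OMA-1 the medians of the ranked members were 1.5 and 1.92, over the same lysates.

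RNA polymerase II, TFIID and Mediator genes lay near the median of all ranked genes (0.25 over 49), with taf-11.2 (3.58), taf-11.3 (3.16) and tbp-1 (2.23) highest and taf-5 (-1.23) lowest. Of the splicing genes, the SR protein genes rsp-8 (421 FPKM with LIN-41, 24.1 in the lysates, 4.07), rsp-5 (2.83) and rsp-4 (2.46) were high, and the core spliceosome gene prp-8 was the single member at least 2-fold lower (45.4 FPKM with LIN-41, 120 in the lysates, -1.39). Of the 45 ranked members 21 were at least 2-fold higher, against 31.2% of all ranked genes, with a median of 0.50. The pore and transport list had a median of 0.01. It includes genes of proteins that carry a LEM domain, which stood well above that median. These were the nuclease gene lem-3 (4.07), the emerin gene emr-1 (2.43) and lem-2 (2.16). Lowest in the list were the importin imb-3 (-1.35), npp-21 (-1.21) and npp-6 (-1.16).

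Histone genes were the lowest coding family. Of 27 ranked genes 22 were at least 2-fold lower and 3 at least 2-fold higher, with a median of -3.04 (-2.88 with OMA-1). The lowest was his-64, with 71.6 FPKM with LIN-41 and 1335 FPKM in the lysates (-4.20), followed by his-18 (-4.06) and his-63 (-4.03). The higher members were his-72 and his-74, which encode the replacement variant H3.3, with 2145 and 163 FPKM (3.71) and 287 and 134 FPKM (1.09), and his-41 (1.18). The linker histone gene his-24 lay at 0.73 and his-37 at 0.05. As background, mRNAs of replicative histones end in a stem-loop in place of a poly(A) tail and those of replacement variants are polyadenylated. Whether the selection or priming of RNA differed between IP and lysate libraries beyond depletion is not given in the sources used here, and its part in these values was not tested.

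Genes for making and folding proteins ranged from far below the median of all ranked genes to well above it. Of 80 ranked cytosolic ribosomal protein genes 77 were at least 2-fold lower and none higher, with a median of -2.33, and they held 1.15% of all FPKM with LIN-41 and 10.6% in the lysates. The lowest was rps-8 (96.7 FPKM with LIN-41, 1204 in the lysates, -3.63). The 3 members less than 2-fold lower were rps-29 (-0.46), rps-2 (-0.51) and rla-2 (-0.64), and of these rps-29 and rla-2 had positive ratios with OMA-1, 1.48 and 2.35. Elongation factors were low as well, eef-1A.1 at -2.37, iff-1 (eIF5A) at -2.15 and eef-1B.1 at -1.76, in a translation factor list with a median of -0.42 over 36 genes. Against that list ran ife-4, an isoform of the cap-binding protein eIF4E (41.7 FPKM with LIN-41, 4.22 in the lysates, 3.03), and eif-3.E, a subunit of eIF3 (1.93).

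The cytosolic chaperonin had all 8 subunits below 0, from cct-2 at -0.74 to cct-5 at -1.92. The proteasome had a median of -0.53 over 32 genes, 1 of them at least 2-fold higher, rpn-6.2 (20.5 FPKM with LIN-41, 7.17 in the lysates, 1.4). The Hsc70 gene hsp-1 (-2.14) and the Hsp90 gene daf-21 (-1.56) were low among heat shock genes and ER chaperones, a list near the overall median (0.32) in which the J-domain genes dnj-26 (3.07) and dnj-8 (2.73) were highest.

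Genes for glycosylation and import at the endoplasmic reticulum were above the median. Of 13 oligosaccharyltransferase and translocon genes 7 were at least 2-fold higher and none lower, with a median of 1.13. The authors' deposited table called 12, against 49.6% of all ranked genes. The oligosaccharyltransferase genes ostb-1 (2914 FPKM with LIN-41, 96.2 in the lysates, 4.91), dad-1 (826 and 77.5 FPKM, 3.4) and ostd-1 (335 and 60.4 FPKM, 2.45) led, and trap-2 was the single member below 0 (-0.74). The same 13 genes had a median of 2.89 with OMA-1, and the difference between the IPs was not tested. Rab and Arf GTPases and their regulators had 13 of 40 at least 2-fold higher, a share near the 31.2% of all ranked genes, and none lower (median 0.57), with arl-5 (2.52), tbc-20 (2.41) and rme-4 (2.21) highest. The nucleolar list had a median of -0.11, with fib-1, which encodes the snoRNP protein fibrillarin, at 2.33 (1060 FPKM with LIN-41, 210 in the lysates) and its repressor ncl-1 at 1.46.

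Metabolic and mitochondrial genes were mostly at or below the median of all ranked genes. Nuclear genes of the respiratory chain had 20 of 38 at least 2-fold lower and 2 higher, with a median of -1.06. The lowest was the cytochrome c gene cyc-2.1 (31.2 FPKM with LIN-41, 311 in the lysates, -3.28), followed by atp-3 (-1.74) and atp-5 (-1.72), subunits of the ATP synthase. The higher members were cox-17 (62.5 and 7.60 FPKM, 2.88) and cox-10 (1.22). With cox-15 (1.00), cox-11 (0.69) and sco-1 (0.22) they encode assembly factors of cytochrome oxidase, which are not subunits of it. Grouping those 5 as assembly factors was a choice made after their values were seen.

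The aminoacyl-tRNA synthetases, which charge tRNAs with amino acids, had a median of -0.24 over 33 genes. The highest were rars-2 (1.77), vars-1 (1.49) and dars-2 (1.12), and the lowest rars-1 (-1.58), dars-1 (-1.26) and fars-3 (-1.18), so the paired genes for arginine and aspartate stood at opposite ends. That was no rule of the numbering: of the 12 amino acids with both genes ranked, the gene numbered 2 was the higher for 6 and the gene numbered 1 for the other 6, among them valine, with vars-2 at -1.04. Mitochondrial ribosomal proteins had a median of 0.00 over 62 genes, with 11 at least 2-fold higher, such as mrps-10 (1.71) and mrpl-45 (1.70), and 8 lower, such as mrps-6 (-1.40).

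Of the mitochondrial genome, 8 protein genes were ranked and 3 (37.5%, against 31.2% of all ranked genes) were at least 2-fold higher: nduo-5 (1.68), atp-6 (1.55) and ctc-2 (1.26). The others lay between -0.10 (nduo-1) and 0.89 (nduo-4). With OMA-1 the median of the same 8 genes was 3.33, against 0.57 with LIN-41, over shared lysates. Glycolysis and the citrate cycle had a median of -0.55 over 40 genes, with the hexokinase gene hxk-1 (659 FPKM with LIN-41, 126 in the lysates, 2.37) highest and the aldolase gene aldo-1 (-1.56) lowest. Fatty acid metabolism had 19 of 44 at least 2-fold lower and 5 higher, from the lipid-binding protein gene lbp-2 (-3.12) and acdh-1 (-2.92) to acdh-13 (2.23) and the elongase gene elo-1 (1.88). The vacuolar ATPase was near the lysate level, with a median of -0.04 over 21 genes.

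Markers of differentiated somatic tissues were low, but not in every tissue. Intestine markers had 32 of 33 ranked members at least 2-fold lower, with a median of -1.69 and spp-14, which encodes a saposin-like protein, lowest (16.7 FPKM with LIN-41, 181 in the lysates, -3.36). The exception was spp-2 (-0.79). Body wall muscle markers had 13 of 18 at least 2-fold lower (median -1.61), with the troponin C gene pat-10 (-3.32) and the myosin light chain gene mlc-2 (-2.60) lowest and the actin gene act-4 (-0.36) nearest to the lysates. The summed FPKM of all 52 intestine markers in the table was 2084 with LIN-41 and 6917 in the lysates, and that of 24 muscle markers 671 and 2044. The 2 ranked pharynx myosins, myo-2 (0.02) and myo-1 (-0.01), were at the lysate level, and so, within 2-fold, were 7 of 9 gonadal sheath and spermatheca markers (median -0.27).

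Hypodermis and neuron lists stood a little above the median of all ranked genes, at 0.46 over 15 and 0.61 over 18, and they mix tissue effectors with factors used elsewhere. Among hypodermal genes noah-2 (3.42), mlt-10 (2.25) and ptr-2 (2.08) were highest and the hedgehog-related genes grd-3 (-1.91) and grd-5 (-1.64) lowest. Among neuronal genes the peptide genes nlp-36 (3.17) and ins-34 (2.81) led and nlp-24 (-1.12) was lowest. Cuticle collagens had 2 of 31 at least 2-fold higher, dpy-10 (2.73) and col-99 (1.10), and 5 lower, with col-95 at -1.95. With the limit on depth lowered to a baseMean of 10, the median of the neuron list became -0.51 and that of the hypodermis list 0.10, against 0.03 for all genes then ranked. Sperm markers, 26 in the table, summed to 123.4 FPKM with LIN-41 and 76.4 FPKM in the lysates. The 3 that could be ranked, spe-5, spe-44 and spe-39, held most of both sums, with spe-39 alone at 59.6 and 35.9 FPKM. Another of the 26 was listed at 0 with LIN-41. Whether these 3 genes mark sperm in these animals was not tested, so the sums are no measure of sperm RNA.

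Members of some expanded families departed from their kin. C-type lectins had a median of -1.29 over 14 ranked genes, 8 of them at least 2-fold lower, yet clec-87 (3.89), clec-90 (2.52) and clec-91 (1.59) were at least 2-fold higher. F-box and MATH domain genes are a large and fast-evolving set of ubiquitin ligase adaptors. Of 40 ranked members 21 were at least 2-fold higher, against 31.2% of all ranked genes, and none lower. Their median was 1.2, and fbxa-170 was highest (171 FPKM with LIN-41, 6.09 in the lysates, 4.60). Of the 398 such genes, 358 were too shallow to rank, and with the limit lowered to a baseMean of 10 the median was -0.06, and relative to that of all genes then ranked it was -0.089.

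Biotypes other than protein-coding genes were few among ranked genes but held the lowest ratios. Coding genes made up 6679 of the 6768 and had a median of 0.34, with 2078 at least 2-fold higher and 651 lower. Among 12 ranked snoRNA genes 9 were at least 2-fold lower and 3 higher, with a median of -4.76, and their whole class held 0.172% of all FPKM with LIN-41 and 4.54% in the lysates. The RNase P RNA gene rpr-1 (WBGene00045238, chromosome I 13463955 to 13464207) had 9.07 FPKM with LIN-41 and 2880 FPKM in the lysates, the lowest ratio of all (-8.16). The related RNase MRP RNA gene mrpr-1 had 19.8 and 2496 FPKM (-6.91), and the snRNA gene sup-6 had 4.26 and 538 FPKM (-6.68). RNase P and MRP RNAs lack poly(A) tails. All 3 were as low with OMA-1 (-7.67, -7.34 and -6.66), over the same lysates.

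The 3 high snoRNA genes differed from the 9 low ones in where they lie. All 3, ZK858.10 (3.56), K10D3.10 (2.41) and F58D5.11 (2.25), overlap an exon of a coding gene on the same strand in the annotation. Their hosts, in that order, are gld-4 (0.77), hpo-11 (-0.10) and F58D5.5 (1.91), each with a lower ratio than the snoRNA gene. Of the 9 low ones none overlaps a coding exon: 7 lie in an intron and 2 outside coding genes. For example, Y24D9A.9 (-4.97) lies in an intron of rpl-7A (-1.92), and F46F11.12 (-7.62) in an intron of trpp-8 (-0.34). Reads of a snoRNA that shares an exon with its host cannot be told apart from reads of the host here, since the counting rule is not given in the sources used. The part of host reads in these ratios was not tested.

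The 31 ranked genes of the ncRNA class showed such a division only in part. Of the 14 at least 2-fold higher, 7 overlap a coding exon on the same strand, 1 lies in an intron and 6 overlap no other coding gene. None of the 8 at least 2-fold lower overlaps a coding exon. Highest of the 7 was F58D5.13 (4.01) in F58D5.5 (1.91). The hosts of the rest of the 7 ran from -0.15 (W06H8.6, with W06H8.5 at 1.92) to 1.03 (cbp-1, with R10E11.13 at 2.64). Each host was lower than the ncRNA gene. Among the low ones without such an overlap were R144.15 (236 FPKM with LIN-41, 2986 in the lysates, -3.66) and ZC155.8 (230 and 2930 FPKM, -3.67). The gene C38C6.8, in an intron of sre-13, had a ratio of 1.87 with LIN-41 and -4.68 with OMA-1. Of the 31, 7 are coding genes in the newer annotation used here. Long intergenic RNAs had 3 ranked members, linc-7 (45.3 FPKM with LIN-41, 3.16 in the lysates, 3.47), linc-22 (2.80) and linc-8 (0.18). Of the 78 such genes, 75 were too shallow to rank. With the limit lowered to a baseMean of 10 their median went from 2.80 to 0.29, against 0.03 for all genes then ranked. Pseudogenes had 16 of 41 at least 2-fold higher (39%, against 31.2% of all ranked genes) and 1 lower, with a median of 0.27. They may share reads with their parent genes. An rRNA pseudogene, WBGene00004677, had 13623 FPKM with LIN-41 and 5180 in the lysates (1.39, and -0.28 with quantile normalization), in libraries of which only the lysates were depleted of ribosomal RNA.

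**Figure D4:**
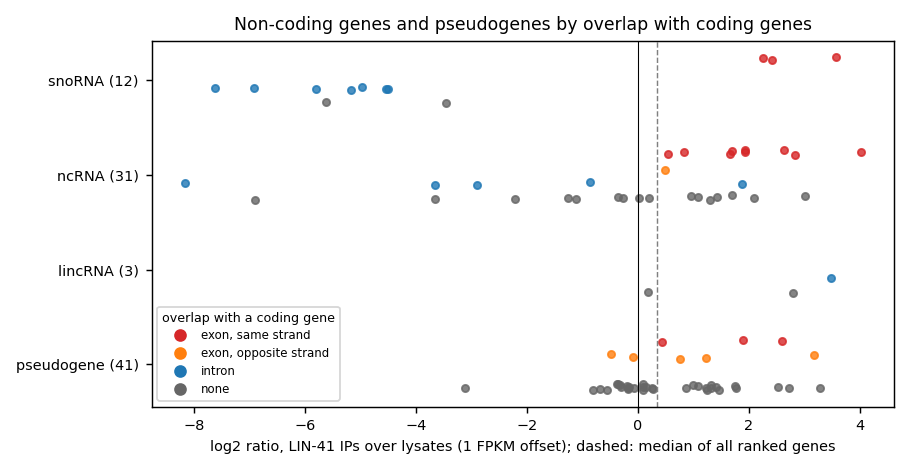
Log2 ratio of LIN-41 IPs over lysates (x) for the ranked snoRNA, ncRNA, lincRNA and pseudogene entries (y, number in brackets), coloured by overlap with a coding gene. The 3 snoRNA genes above 0 overlap coding exons on the same strand, and the 9 below 0 lie in introns or outside coding genes.

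Genes higher in oogenic than in spermatogenic gonads, by a comparison from another study that the authors placed in their deposited table, had higher ratios with LIN-41. Among 786 ranked genes at least 4-fold higher in oogenic gonads the median was 1.18, and 55.1% were at least 2-fold higher with LIN-41 and 2.29% lower. Genes within 2-fold between the gonads had a median of 0.21 (4633 genes, 26.7% higher and 10.4% lower). Those 2- to 4-fold higher in spermatogenic gonads had a median of -0.48 (381 genes, 10.8% higher and 33.3% lower). The next step broke the order: at 4-fold or more on the spermatogenic side the median was -0.04 over 117 genes, with 25.6% at least 2-fold higher and 21.4% lower. Of the 1840 genes of that step, 1723 were too shallow to rank, as were 1664 of 2045 in the step before. A gene with little lysate RNA could pass the limit on depth through the IP libraries alone. The part of that limit in the break was not tested.

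The share of low genes was smaller where 3′ UTRs were longer. In 5 equal groups of 6531 ranked coding genes ordered by the 3′ UTR length of the annotation, the share at least 2-fold lower with LIN-41 was 19.9% in the shortest group (median length 75 nucleotides) and 3.68% in the longest (635 nucleotides). The share at least 2-fold higher was 24% in the shortest and 34.5% in the longest, and the median ratio 0.12 and 0.51. Across genes, which are not independent replicates, Spearman's rho was 0.15 with LIN-41 and 0.06 with OMA-1. Ribosomal protein mRNAs, which are low here, are known for short 3′ UTRs, and their part in the first group was not tested. By coding length the share at least 2-fold lower was likewise larger in the shortest group, 18.7%, than in the longest, 7.37%, while the median ratio was 0.49 in the shortest group and -0.07 in the longest.

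**Figure D5:**
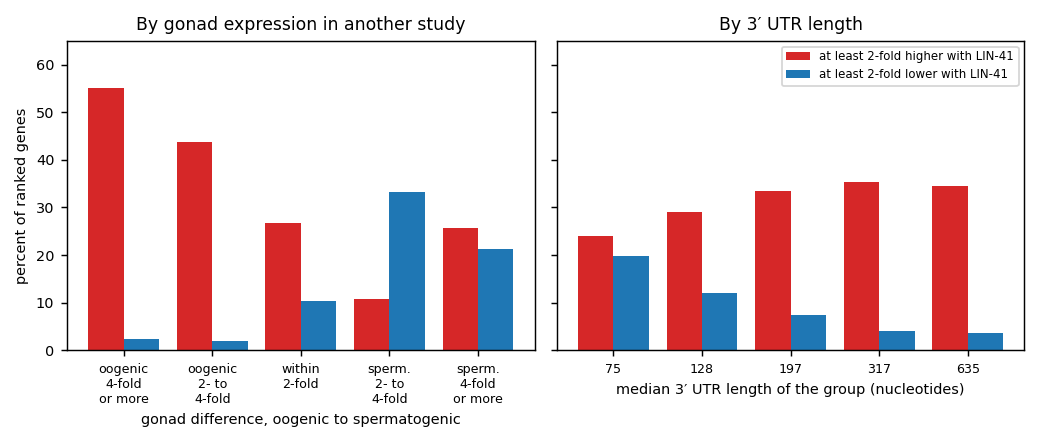
Percent of ranked genes at least 2-fold higher (red) and at least 2-fold lower (blue) with LIN-41 (y), by expression in oogenic against spermatogenic gonads of another study (left panel, x) and by 5 equal groups of 3′ UTR length (right panel, x, median length of each group in nucleotides). The share of higher genes is 55.1% among genes at least 4-fold higher in oogenic gonads, and the share of lower genes is 19.9% in the group with the shortest 3′ UTRs.

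Chromosomes differed little. Median ratios ran from 0.22 on V to 0.40 on I, with the X chromosome at 0.35, where 14.6% of 694 ranked genes were at least 2-fold lower. By level in the lysates the spread was wider: the median ratio was 0.62 for genes at 1 to under 10 FPKM in the lysates, 0.33 at 10 to under 100, -0.48 at 100 to under 1000 and -3.07 for the 21 genes at 1000 or more. The lysate value is also the denominator of the ratio, so part of that order follows from its construction.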

How the data were processed

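RNA-seq of 8 libraries was pooled by the authors into a table of 16031 genes, with no value per library, so depth per library is unknown. Tools named in the submitters' processing notes, without role or order, are STAR 2.4.2a, Trimmomatic 0.32, DESeq2 1.12.3 and SAMtools 1.0, with the build WBcel235. The counter, the annotation and the use of strand were not given in the sources used here. Per the file headers, the authors deposited FPKM values pooled by kind of library, log2 ratios of IP to depleted lysates, Benjamini-Hochberg adjusted p-values of those ratios, and baseMean, a mean signal of scaled reads per gene. They also deposited a log2 ratio and p-value for gonads of another study. A further 5 columns were not used.

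From these the log2 ratio of FPKM plus 1 was computed (Python 3.11.15, pandas 2.3.3) for every gene, and genes with a baseMean of 100 or more were ranked. The computation was tested on simulated data. No test was run, since the values are pooled. Calls are the authors' own, from their one-sided test at an adjusted p below 0.05. Whether the 2 IPs were separate cultures is not stated, so those p-values may measure technical spread only. Positions and overlaps come from Ensembl release 115 (WBcel235), which matched 15914 IDs.

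Lists are patterns over gene symbols. The comparison, its members and the 50 lists were chosen with earlier results of these data known. A chemoreceptor list was dropped because its pattern caught unrelated genes, and atp-6 was taken out of the nuclear respiratory list because it lies in the mitochondrial genome. Genes named are up to 3 of the highest and 3 of the lowest ranked members of a list, members that go against their list, the 10 highest and 10 lowest of all, the most abundant, lin-41, oma-1 and oma-2. Others are said to be chosen after their values were seen. Strain numbers in the labels climb by 1 per sample, and 1 strain per genotype is assumed. Alternatives changed the offset, the limit on baseMean, the threshold and the scaling.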

Additional observations from a re-analysis of the deposited data

How the results depend on the processing

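The count of genes at least 2-fold higher, 2114, became 906 with equal totals. The count at least 2-fold lower, 670, became 2278 with equal totals, 1238 with quantile normalization, 1158 with a baseMean of 10 or more and 328 with 500 or more; a looser or stricter limit changes how many genes are counted. In the other alternatives both counts stayed within 1.5 times, 1454 to 2373 for higher and 499 to 727 for lower, and the authors' deposited table had 3795 calls, 3462 at an adjusted p below 0.01, 3355 among ranked genes and 2588 of at least 2-fold. Relative to all ranked genes, the median of F-box and MATH genes became -0.089 with a baseMean of 10 or more and that of the rRNA pseudogene, WBGene00004677, -0.25 with quantile normalization (its ratio -0.28); the cause was not tested. In all, 9 lists changed side of the median of all ranked genes with a baseMean of 10 or more, among them neuron markers (-0.55), DREAM and synMuv B genes (0.26), cell polarity (0.14) and RNA polymerase II with TFIID and Mediator (0.13), and 5 lists or biotypes with 500 or more, mitochondrial ribosomal proteins (0.16), P450, UGT and GST genes (0.19), the small RNA pathway (-0.05), ncRNA (-0.10) and pseudogenes (0.62). Of 577 named genes, quantile normalization moved the ratio of 43 by 1 or more on the log2 scale and turned that of the rRNA pseudogene. A change of sign was scored only for genes at least 2-fold apart, so the 43 were not sorted by sign. Equal totals multiply the LIN-41 column by a single factor, too small to move any ratio that far. Ratios a little above 0 turn negative there, and the median of all ranked genes went from 0.34 to -0.55. Leaving out a library could not be run, because the values are pooled. No paired analysis was possible because the table has no column per library. FPKM with no counts allow no interval, so differences under 2-fold, and values of genes with a few FPKM in the lysates, are uncertain.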

Other observations

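Gene classes, the letters before the hyphen of a gene name, were compared where at least 10 members were ranked, 49 classes in all, as a description beside the median of all ranked genes, 0.34. Of classes not yet described, the glycosyltransferase genes named gly had a median log2 ratio of 1.14 with LIN-41 (12 ranked, 6 at least 2-fold higher and none lower) and 2.08 with OMA-1. The mig genes, named for cell migration defects, had 1.17 (11 ranked, 6 higher and none lower), and the dpy genes, named for a short body, 1.00 (11 ranked, 5 higher). The galectin genes named lec had -0.58, with 4 of 10 at least 2-fold lower. The autophagy genes named atg (0.31 over 12) and the vacuolar sorting genes named vps (0.15 over 28) lay close to the median of all ranked genes.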
